A study of Mus musculus with 816 samples.

Results

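The cytosolic ribosomal protein genes encode the protein part of the ribosome that translates nuclear-encoded mRNA. They were followed across a panel of stimuli in microglia grown in culture, and in freshly isolated microglia of LPS-injected and aged mice. Genes were taken by symbol, Rpl or Rps followed by a number, plus Rplp0, Rplp1, Rplp2 and Rpsa, with annotated pseudogenes left out. A gene was kept where its mean over untreated 24 h cultures was above 5 CPM, or reads of a gene in 1e6 mapped reads. Of 45581 genes listed in cultures, 88 had such a symbol and 79 were kept, 48 of the large and 31 of the small subunit. The genes were thus chosen by their level in untreated cultures, and levels there are given as a description. The same untreated cultures are the reference of every comparison at 24 h and at 4 h, so those comparisons are not independent of each other.

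The series holds 784 cultures in 98 combinations of stimulus and time, and microglia from 32 C57BL/6 mice. The cultures were commercial primary microglia of neonatal mice, on 10 plates and in 21 library pools. They carry 3 deposited source names, which end in Feb15, March15 and May16. These are called lots of cells here, although the deposited names do not say that they are lots. Untreated cultures numbered 40 at 24 h and 25 at 72 h, but no untreated culture carries a 4 h label, and the 24 h ones serve as the 4 h reference. The agents described most here were given at these doses. Lipopolysaccharide, a bacterial ligand of TLR4, was used at 0.0001 ug/ul (LPS_hi) and 0.00001 ug/ul (LPS_lo), and IC, the double-stranded RNA mimic poly(I:C), at 0.2 ug/ul. IFNa was used at 0.0008 ug/ul, IFNb, IFNg and CCL7 at 0.0001 ug/ul, the TLR2 ligand P3C and the prostaglandin PGE2 at 0.001 ug/ul, TNFa at 0.000004 ug/ul, IL4 at 0.00005 ug/ul, GMCSF at 0.000005 ug/ul and HDL at 2 ug/ul. Rapamycin, an inhibitor of the kinase complex mTORC1, was given at 5 nM, resveratrol at 50 uM, MPP (1-methyl-4-phenylpyridinium, a mitochondrial toxin) at 100 uM and Valproic Acid at 1000 uM. ATP and nicotine were given at 1000 uM, norepinephrine at 1 uM, GABA at 100 uM, estradiol at 1 nM and minocycline at 20 uM. CCL2 and TGFb were given at 0.0001 ug/ul, IL10, IL13 and eotaxin at 0.00005 ug/ul and s100B at 0.00003 ug/ul. These are the doses labelled for each agent alone, and mixtures carry only 1 labelled dose. In the LPS experiment 4 female mice received LPS at 2 mg/kg and 4 received PBS, with microglia taken at 4 h. In the aging experiment 13 male mice of 22 months and 11 of 2 months were compared, in 2 batches. These batches are the 2 experiment names deposited with the samples. Animals, isolation and library cannot be told apart between them. Mouse microglia were isolated through the surface protein CD11b, which other myeloid cells also carry.

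Depth was estimated from the most frequent low value above 0 in each sample, taken as 1 read, and not from reported counts. It was 1.00 to 38.2 M mapped reads per culture and 2.36 to 7.78 M per mouse (M for 1e6). The microglial marker Csf1r had a median of 3927 CPM in untreated 24 h cultures and 22008 CPM in 2-month mice. Tmem119 and P2ry12, which mark microglia in the brain, were near the floor in the cultures, with medians of 14.6 and 3.49 CPM against 4630 and 689 CPM in those mice. Values are shares of all mapped reads. A rise of other genes therefore lowers them, and fewer cells and less RNA per cell cannot be told apart.

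Each ribosome carries about 1 copy of nearly every ribosomal protein, and cells tend to adjust the genes together. Their mRNAs are known for a 5′ terminal oligopyrimidine (TOP) tract, a C at the first base followed by a run of C and U. Through this tract mTORC1 and the binding protein Larp1 control how much of the mRNA is translated and how stable it is. Several ribosomal proteins also have roles outside the ribosome. Rpl5 and Rpl11 bind the p53 inhibitor Mdm2, Rps3 binds the NF-kB subunit RelA, and Rpl13a is released from the ribosome after interferon-gamma to silence inflammatory mRNAs in myeloid cells.

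To show the tract in the genes described below, the bases around the annotated transcription start were read from RefSeq on GRCm38.p6. A start was found for 58 of the 79 genes. Each line gives 12 bases before the start and 18 from it, on the strand of transcription, and capitals mark the longest run of C and T that lies within 5 bases of the start. The first 6 lines have runs of at least 9 bases that span the start, and include the gene with the highest read share, Rpl15. Rps27l on the last line also has a run of 9, but it ends before the annotated start. The lines between have runs of at most 7 and include members that rose or fell most in a comparison.
Rpl15: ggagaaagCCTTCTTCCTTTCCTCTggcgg
Rps18: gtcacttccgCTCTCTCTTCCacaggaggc
Rps6: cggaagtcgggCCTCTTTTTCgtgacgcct
Rpl28: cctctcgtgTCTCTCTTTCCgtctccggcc
Rps9: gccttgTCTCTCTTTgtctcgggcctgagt
Rps15a: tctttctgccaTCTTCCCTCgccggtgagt
Rps16: gcttctgTCgtgacgtagcactcaatgcgc
Rpl10a: gcgCCCCCCCagcggccgcaaactgcagcg
Rps7: tccggTTTCCacccacctacttccgctgtc
Rps25: ttccgacaTCTTagcgaggctgctgtggtc
Rpsa: ggttaTTTaaggacgtcatttccggccgcc
Rpl41: acgggccggCTCggaagtgacgacaccgag
Rpl24: aagctgTTgctaggaaacagactgggcgct
Rps27l: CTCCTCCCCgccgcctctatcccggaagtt
The windows lie at chr14:18270969-18270998 (Rpl15, minus strand), chr17:33955648-33955677 (Rps18, minus), chr4:86857350-86857379 (Rps6, minus), chr7:4792953-4792982 (Rpl28, plus), chr7:3704029-3704058 (Rps9, plus) and chr7:118116130-118116159 (Rps15a, minus). The others lie at chr7:28350677-28350706 (Rps16, plus), chr17:28328459-28328488 (Rpl10a, plus), chr12:28635936-28635965 (Rps7, minus), chr9:44407702-44407731 (Rps25, plus), chr9:120127754-120127783 (Rpsa, plus), chr10:128549151-128549180 (Rpl41, minus), chr16:55966263-55966292 (Rpl24, plus) and chr9:66946074-66946103 (Rps27l, plus).

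A run of at least 8 pyrimidines within 5 bases of the start was present in 23 of the 58 genes (39.7%) and in 3068 of 27025 genes in all (11.4%). This count includes runs that end before the start, as in Rps27l, and so need not be part of the mRNA. A start at C that opened a run of at least 5 pyrimidines, with the C counted, was present in 12 of the 58 (20.7%) and in 2.91% of all genes. These runs were searched only on the strand of transcription. A RefSeq start can differ by some bases from the start used in microglia, so a short run in these windows says only that the letters are not there.

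In untreated 24 h cultures the read share of single members spanned a wide range. Rpl15, of the large subunit, was highest at 1745 CPM (mean of 40 cultures), and Rpl22l1, a paralog of Rpl22, was lowest at 7.91 CPM. The 10 highest members held 39.8% of the summed level. Just above the threshold of 5 CPM were also Rps3a3 at 8.56 and Rpl12 at 8.65 CPM. The highest symbols left out were Rps4l at 4.67, Rpl39l at 1.30, Rps27 at 0.93 and Rps12 at 0.67 CPM. Reads were counted from the 3′ end and not divided by length, so these are read shares and not protein or mRNA ratios.

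Many of these genes have processed pseudogenes of nearly the same sequence, and reads can be assigned to either. Annotated copies at least 95% identical over the last 300 bases were found for 61 of the 79 genes. For 53 genes more than 90% of the reads of gene and copies stood on the gene's own row, and for 7 genes less than 50%. Rps2 held 6.05% of its family's reads, Rpl10a 15.6%, Rpl5 22.8%, Rpl27 32.9% and Rps13 36.9%. Rps2 was also the most variable member, with an SD of 2.78 on the log2 scale among untreated 24 h cultures, which fell to 0.31 when gene and copies were summed. For Rpl5 the SD fell from 2.40 to 0.38. Over all members the median SD was 0.55 on the own row and 0.52 with copies.

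Part of this variation followed the lot of cells. Rps2 was at 0 to 30.98 CPM in 171 cultures of lot Feb15 (median 0.127) and at 0 to 8.21 CPM in 237 cultures of lot March15 (median 0.463), against 51.1 to 514 CPM in 376 cultures of lot May16 (median 197). The ranges of the first 2 lots did not reach that of the third. With copies summed the medians were 478, 487 and 546 CPM. Rps3a3 ran the other way, with medians of 6.41, 12.5 and 0.106 CPM in the same order of lots. Rplp0, which builds the stalk that recruits elongation factors, had medians of 104, 89.5 and 288 CPM, and 241, 230 and 308 CPM with copies. All cultures at 72 h came from lot May16, and at 24 h this lot was on plate MGm161010B and in 4 Valproic Acid cultures on another plate. Untreated cultures of both times exist in May16, 8 at 24 h and 25 at 72 h, but on different plates, so time and plate cannot be told apart. Within this lot 6 members were higher in untreated cultures at 72 h than at 24 h and none was lower, where 1.5% of 15748 genes were called, and the member median was 0.30 against 0.05 over all genes. Values of Rps2, Rpl5 and Rps3a3 are therefore given below with copies or plate considered. For Rplp0 this was done only in some comparisons. Its values at 24 h with LPS_hi, with IFNg and with rapamycin added to LPS_lo are from its own row alone.

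**Figure D1:**
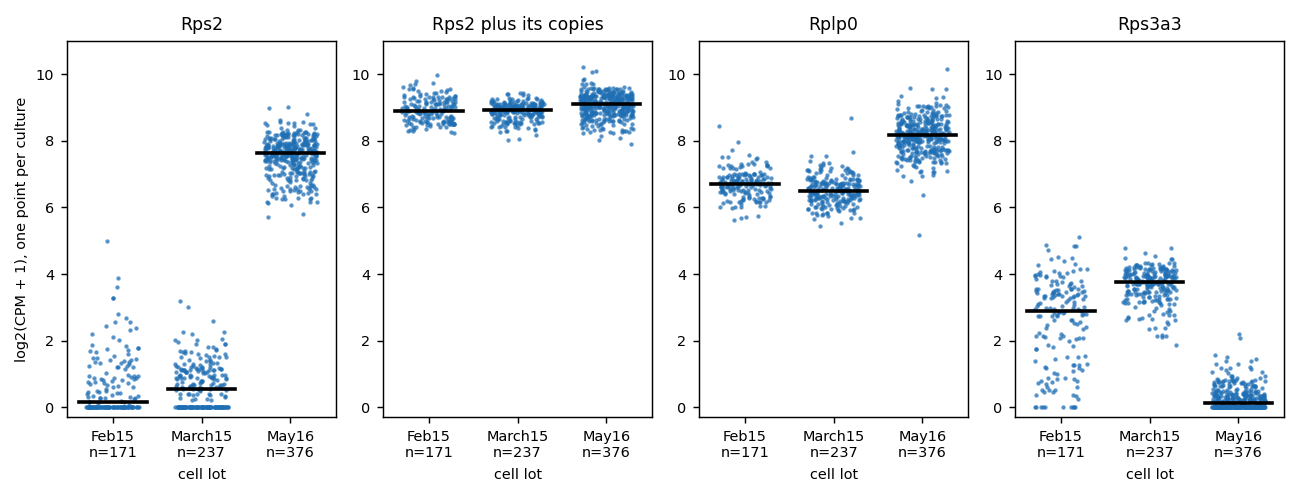
Levels of Rps2, of Rps2 with its near-identical copies summed, of Rplp0 and of Rps3a3 by lot of cells, as log2(CPM + 1) with 1 point for each culture. Rps2 lies near 0 in lots Feb15 and March15 and between 51.1 and 514 CPM in May16, while the sum with copies is similar in all 3 lots.

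The summed level of the 79 genes took between 0.973% and 3.95% of mapped reads in cultures, with a median of 2.06%. In untreated 24 h cultures it was 1.38% at the lowest, 2.00% at the median and 2.97% at the highest (n = 40). Medians of the 6 plates lay between 1.63% and 2.31%. Depth and the sum were weakly related among these cultures (Pearson r = -0.15, Spearman rho = -0.14, n = 40 cultures that share plates and pools, given as a description).

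At 24 h, LPS_hi had the lowest median sum among the conditions described here. Its sums ran from 0.973% to 1.48% with a median of 1.23% (n = 18), and overlapped untreated cultures only between 1.38% and 1.48%. Each of the 18 cultures was below the untreated median of its own plate, on 6 plates, by 0.546 to 1.03 percentage points at the plate medians. LPS_lo had a median of 1.35% (1.26% to 1.66%, n = 7), IC of 1.40% (1.21% to 1.61%, n = 8), IFNa of 1.51% (1.27% to 1.88%, n = 8) and IFNb of 1.62% (1.40% to 1.95%, n = 10). All cultures of these 4 conditions were below the untreated median of their plate. IFNg (1.74%, 8 of 9 below) and P3C (1.74%, 4 of 6 below) overlapped untreated cultures more. Summed with copies, the medians were 2.38% in untreated cultures, 1.49% with LPS_hi and 1.67% with IC.

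**Figure D2:**
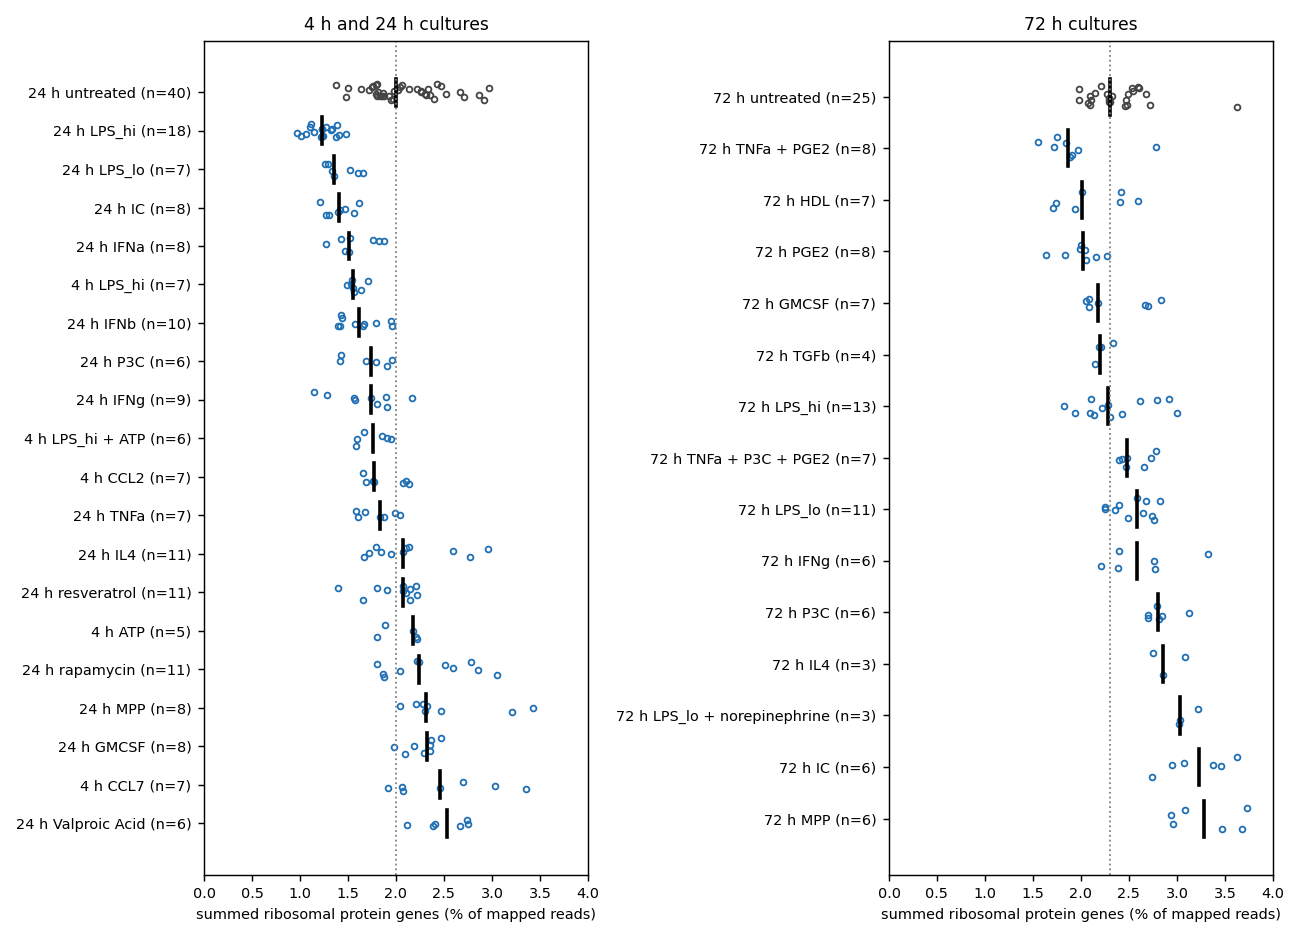
Summed level of the 79 genes as a percent of mapped reads, with 1 point for each culture and a bar at the median of each condition, for 4 h and 24 h (left) and 72 h (right). The dotted line is the untreated median, 2.00% at 24 h and 2.30% at 72 h. LPS, IC and the interferons lie to the left of it at 24 h, while IC, P3C and MPP lie to the right at 72 h.

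Single members were compared with limma on log2(CPM + 1) over all genes, with Benjamini-Hochberg adjustment, and a gene was called at an adjusted p under 0.05 with no minimum fold. Over 38 single conditions at 24 h, members were called lower 295 times and higher 45 times, in 3002 tests. That is 9.83% lower and 1.5% higher, against 4.3% and 2.39% of the tests of all genes. In 19 of the 38 conditions no member was called.

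With LPS_hi, 69 of 79 members fell and none rose, in a comparison where 39.1% of 14830 genes were called and 27.7% were lower. The median difference was -0.71 on the log2 scale over the members and -0.20 over all genes. Both subunits took part, with 42 of 48 large and 27 of 31 small members lower and medians of -0.71 and -0.72. Scaled to the median ratio of genes in place of all reads, all genes shifted up by 0.10, 56 members were lower and 1 was higher, and the member median was -0.54. Sums of 5 proliferation markers were also lower with LPS_hi, from a median of 545 CPM (42.3 to 1022) to 67.9 CPM (31.3 to 222), with 5 of 5 lower. Of 11 microglial markers 8 were lower and 2 higher, with a summed median of 1638 against 6673 CPM. Their part in the fall of the ribosomal genes was not tested.

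Rpl10a, of the large subunit (chromosome 17, GRCm38), fell most by this test. It was at 38.1, 161 and 298 CPM (lowest, median, highest) in untreated cultures and at 22.8, 49.7 and 89.6 CPM with LPS_hi. All 18 LPS_hi cultures were below the untreated median, and the ranges overlapped in part. The difference was -1.70 (SE 0.157, limma adjusted p = 7.98e-23), and -1.59 with its copies. Rps16, a small-subunit protein near the decoding site, was at 326, 475 and 817 CPM in untreated cultures and at 134, 216 and 297 CPM with LPS_hi. No LPS_hi culture reached the lowest untreated one, and the difference was -1.23 (SE 0.102, limma adjusted p = 1.31e-27).

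Rpsa, which is also known as the laminin receptor precursor, was at 63.6, 121 and 233 CPM untreated and at 27.4, 46.9 and 125 CPM with LPS_hi. In 1 of the 18 LPS_hi cultures it was above the untreated median, and the difference was -1.22 (SE 0.120, limma adjusted p = 1.55e-20). Rpl10, which joins the large subunit late in its assembly, fell by 1.38 (SE 0.226, limma adjusted p = 2.26e-08). Rpl5 fell by 1.67 with an SE of 0.635 on its own row (adjusted p = 0.0253), and by 0.69 with copies.

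Among members with known roles outside the ribosome, Rpl11 fell by 0.57, Rps3 by 0.58 and Rpl13a by 0.66 with LPS_hi. Of the stalk proteins Rplp0 fell by 0.63 on its own row (limma adjusted p = 0.000668), Rplp1 by 0.56 and Rplp2 by 0.65. Rpl3, next to the peptidyl transferase centre, fell by 0.89, and the X-linked Rps4x by 0.91. Rpl15, the highest member, fell by 0.43. Rps6, the substrate of S6 kinase downstream of mTORC1, fell by 0.29 (SE 0.101, limma adjusted p = 0.0139), from 124, 305 and 452 CPM to 121, 239 and 305 CPM, and these ranges overlapped widely.

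Some members are paralogs of others. Rpl22 fell by 0.71 while its paralog Rpl22l1 differed by -0.14 (limma adjusted p = 0.792) at levels of 0 to 29.8 CPM. Rpl7 fell by 0.72 while Rpl7l1 differed by 0.29 (limma adjusted p = 0.0620), with 25.1, 45.9 and 65.3 CPM under LPS_hi and 17.9, 35.8 and 64.1 CPM untreated. Rpl7l1 was above the untreated median in 16 of 18 LPS_hi cultures and passed with plate in the fit (0.34, adjusted p = 0.0181). Rps27l, a p53-induced paralog of Rps27, fell by 0.48. These differences within pairs were not themselves tested. Rpl39 (-0.55, limma adjusted p = 0.0537) and Rps2 (0.07 on its own row, -0.43 with copies) were among the 10 members not called.

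**Figure D3:**
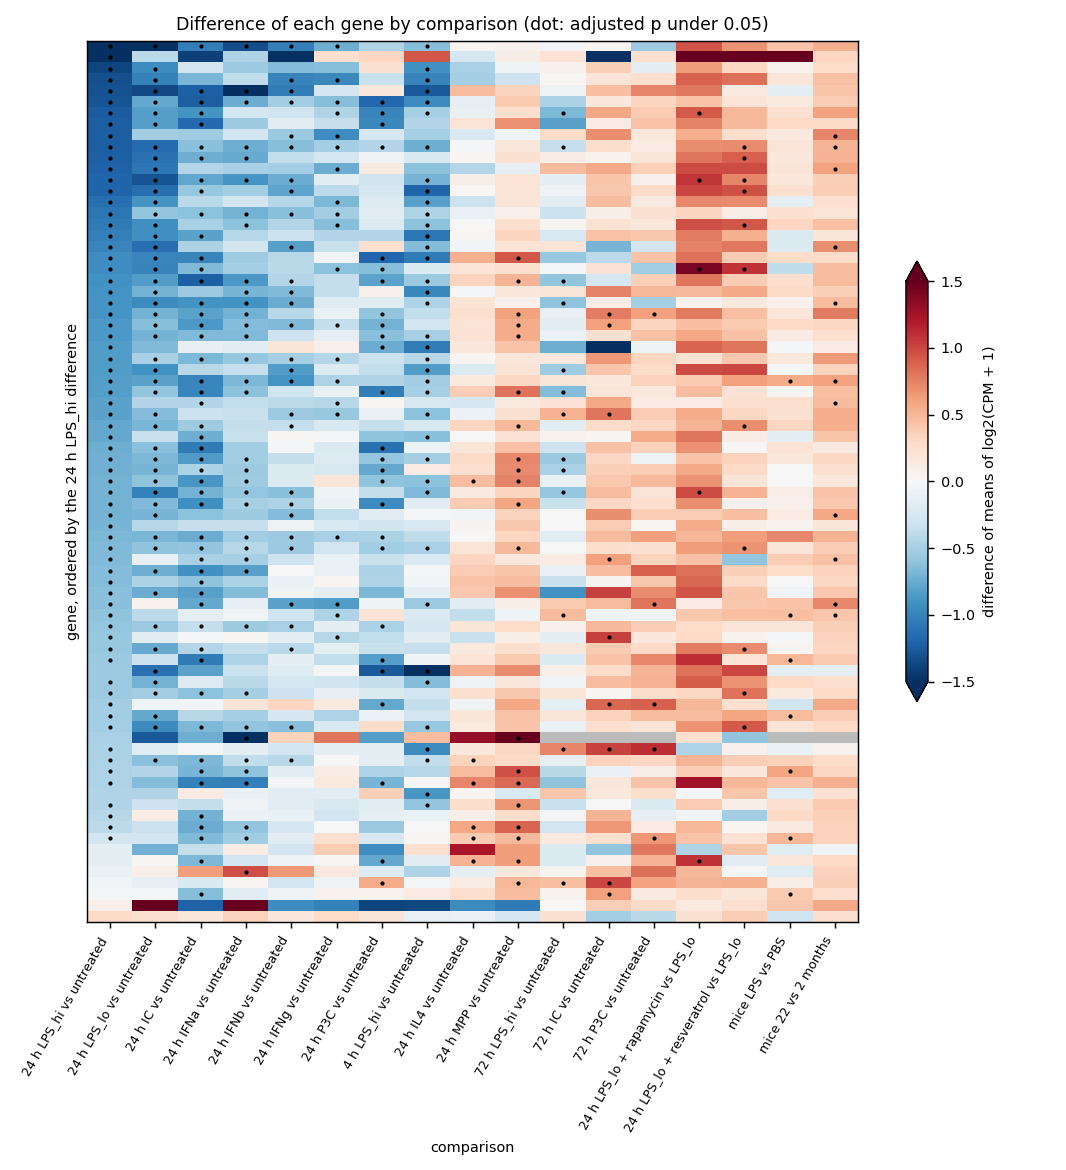
Difference of means of log2(CPM + 1) for each of the 79 genes (rows, without names, ordered by the 24 h LPS_hi difference) in 17 comparisons (columns), with a dot where the adjusted p was under 0.05 and grey where a gene was not tested. The 24 h LPS and IC columns are blue (lower) in nearly all rows, and the columns for rapamycin or resveratrol added to LPS_lo and for 22-month mice are red (higher) in most.

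LPS_lo lowered 50 of 79 members and raised none, where 26.6% of all genes were called and 19.3% were lower. The member median was -0.68 against -0.26 over all genes. Rpl10a fell by 1.68, Rpl12 by 1.35 and Rps16 by 1.16. For Rplp0 the own row gave 0.05 (limma adjusted p = 0.906), which turned to -0.48 with plate in the fit and -0.53 with copies. With median-ratio scaling 40 members were lower.

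IC also lowered 50 of 79 members and raised none, where 19.5% of all genes were called and 14.3% were lower, with a member median of -0.67 against -0.18. Rps28 was at 70.4, 195 and 430 CPM in untreated cultures and at 61.3, 73.6 and 115 CPM with IC. All 8 IC cultures were below the untreated median, and the difference was -1.23 (SE 0.216, limma adjusted p = 6.29e-07). Rps4x was at 77.5, 253 and 460 CPM untreated and at 51.0, 111 and 151 CPM with IC, a difference of -1.22 (SE 0.172, limma adjusted p = 3.22e-10). Median-ratio scaling left 28 members lower, with a median of -0.44 and a shift of all genes by 0.15. The proliferation markers had a summed median of 53.6 CPM with IC (34.9 to 91.6), with 5 of 5 lower, and their part was not tested.

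The interferons lowered fewer members. IFNa lowered 35 and raised 1 (23.4% of all genes called, 17.1% lower), with a member median of -0.50. Its riser was Rps24, a small-subunit protein, at 288, 601 and 805 CPM against 99.0, 291 and 711 CPM, a difference of 0.96 (SE 0.275, limma adjusted p = 0.00424). IFNb lowered 29 and raised none (17.1% called, 10.4% lower), with a median of -0.36, and Rpl12, Rpl10a and Rpl21 fell most, by 1.05, 1.02 and 1.01. IFNg lowered 20 and raised none (17.3% called, 8.85% lower), with a median of -0.23, and Rpl21 fell by 0.96, Rps15 by 0.94 and Rplp0 by 0.84. The Rplp0 value is from its own row, which held 50.6% of the reads of gene and copies in untreated cultures. With IFNa the falls of Rpl12 (1.59) and Rpl10a (1.33) were the most marked next to Rps3a3 (1.59), whose fall was 0.73 and not called with plate in the fit.

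P3C lowered 25 members and raised 1, but 33.4% of all genes were called and 27.5% were lower, and the member median of -0.36 was close to the -0.38 of all genes. Rpl39, which lines the exit tunnel, fell by 1.25, Rpl30 by 1.19 and Rps28 by 1.17, and Rpl24 rose by 0.56. The count of members is near the background here.

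Some agents had higher sums at 24 h. MPP ran from 2.04% to 3.43% with a median of 2.31% (n = 8), and all 8 cultures were above the untreated median of their plate. It raised 20 of 79 members and lowered none (11.8% of all genes called, 6.61% higher), with a median of 0.32 against 0.06. Rps15a was at 119, 213 and 293 CPM against 24.7, 125 and 212 CPM untreated, a rise of 0.95 (SE 0.215, limma adjusted p = 0.000489), and Rpl30 rose by 0.94. Rps3a3 rose by 1.71, and by 0.76 without passing the test with plate in the fit. The proliferation markers had a summed median of 109 CPM with MPP (54.7 to 181), below that of untreated cultures.

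IL4 raised 6 members and lowered none (7.57% of all genes called, 5.29% higher), with a median of 0.15 against 0.13, so the members moved with all genes. Its 11 cultures were all above the untreated median of their plate, and 10 of 11 above that of their library pool, from 1.66% to 2.96%. Rps10 rose by 0.58 and Rps9 by 0.52, while Rpl35 rose by 0.73 on its own row and differed by 0.14 with copies. GMCSF raised 3 members, Rpl14 by 0.68, Rpl18 by 0.59 and Rps19 by 0.50, and lowered Rpl12 by 1.07 (7.18% called). Valproic Acid, a histone deacetylase inhibitor, raised 12 members and lowered 1 (13.7% called, 6.42% higher), led by Rps2 with 3.81, which was 0.23 with copies. Of its 6 cultures 2 shared a plate with untreated ones, and with plate in the fit no member was called higher.

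Rapamycin alone raised or lowered no member by this test (0.378% of all genes called), with a median of 0.21 and 66 of 79 members above 0. Its sums were 1.80%, 2.24% and 3.06% (n = 11), and 10 of 11 were above the untreated median of their plate. With plate in the fit 1 member was called higher. Resveratrol alone lowered Rpl3 by 0.53 (SE 0.119, limma adjusted p = 0.00251) and no other member (1.7% called), with a median of -0.02.

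Both agents were also given together with LPS_lo, on the same plates as LPS_lo alone. LPS_lo sums had medians of 1.29% and 1.56% on plates MGm160926B and MGm161010B. With rapamycin they were 2.22% and 2.01%, and with resveratrol 1.57% and 1.82%. The untreated medians of the same plates were 2.31% and 2.17%. Of the 7 LPS_lo + rapamycin cultures, 6 were below the untreated median of their plate, as were all 8 LPS_lo + resveratrol cultures. The untreated wells of MGm160926B had medians of 2.89% and 2.14% in their 2 library pools. Against untreated wells of the same pool, LPS_lo + rapamycin was lower in all 3 pools, by -0.669 to -0.160 percentage points at the medians. By plate these differences were -0.160 to -0.0828. For LPS_lo + resveratrol they were -0.574 to -0.355 by pool. The lowest LPS_lo + rapamycin culture (1.65%) was just below the highest LPS_lo culture (1.66%).

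**Figure D4:**
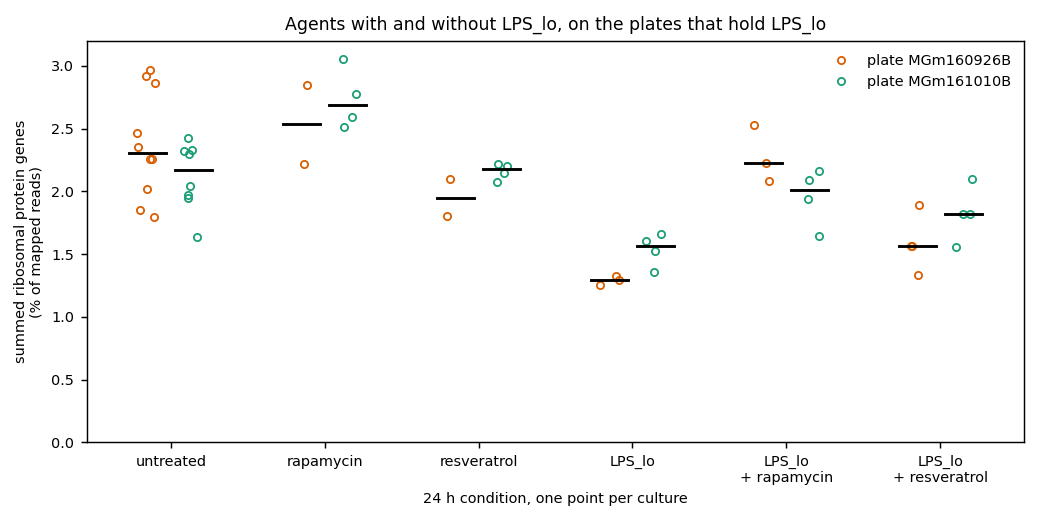
Summed level of the 79 genes as a percent of mapped reads at 24 h on the 2 plates that hold LPS_lo, with 1 point for each culture, the plates in separate colours and a bar at the median. LPS_lo is lowest on both plates, LPS_lo + rapamycin lies at medians of 2.22% and 2.01%, and LPS_lo + resveratrol lies between it and LPS_lo alone.

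Against LPS_lo alone, rapamycin raised 5 members and lowered none, where 0.432% of all genes were called and 0.209% were higher. The member median was 0.57 against -0.06 over all genes, and 75 of 79 members were above 0. Rps7, which also binds Mdm2, was at 39.3, 77.5 and 96.9 CPM with LPS_lo and at 109, 182 and 273 CPM with rapamycin added. The groups did not overlap, and the difference was 1.42 (SE 0.296, limma adjusted p = 0.00235). Rps25, needed for initiation at some internal ribosome entry sites, rose from 82.7, 197 and 214 CPM to 226, 281 and 482 CPM, by 0.98 (SE 0.185, limma adjusted p = 0.000379). Its groups did not overlap either. Rps9 rose by 1.08 (limma adjusted p = 0.0332).

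Some members with differences of this size did not pass. Rplp1 differed by 1.11 (limma adjusted p = 0.277), Rpsa by 0.81 (0.0767) and Rps6 by 0.43 (0.463), while Rplp0 differed by 0.13 on its own row and Rps27l by -0.47. The count depended on the fit, with 25 members higher with plate as a term, 33 with library pool, 16 with median-ratio scaling and 9 with copies summed. The shares of all genes called in those fits are not given. The proliferation markers had summed medians of 96.3 CPM with rapamycin and 107 CPM with LPS_lo alone, with 0 of 5 called.

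Resveratrol raised 11 members over LPS_lo alone and lowered none (2.81% of all genes called, 1.74% higher), with a median of 0.41 against 0.10. Rps7 was at 101, 130 and 208 CPM, above all LPS_lo cultures, and rose by 1.08 (SE 0.287, limma adjusted p = 0.0136). Rpsa was at 70.2, 102 and 207 CPM against 41.2, 55.7 and 62.2 CPM, again without overlap, and rose by 0.90 (SE 0.219, limma adjusted p = 0.00535). Rpl36a rose by 0.95 and Rpl37a by 0.93. Rpl11 rose by 0.71 on its own row and differed by 0.24 with copies. With median-ratio scaling 3 members were higher.

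Whether an agent acted otherwise with LPS_lo than without was tested as an interaction. For rapamycin, Rps25 alone was called (0.99, SE 0.219, limma adjusted p = 0.0183), where 0.0539% of all genes were, and the member median was 0.38. For resveratrol, Rpsa (1.04, limma adjusted p = 0.0147) and Rps25 (0.85, limma adjusted p = 0.0151) were called, where 1.21% of all genes were, with a median of 0.45. Over 19 comparisons of an agent added to LPS, at any time, members were called higher 18 times and lower 1 time, against 0.872% and 0.576% of the tests of all genes. The other agents added to LPS at 24 h gave few calls. Estradiol raised 1 member over LPS_hi (0.715% of all genes called), and GABA (0.6%), minocycline (0.344%) and CCL2 over LPS_lo (0.0135%) none, with member medians of 0.28, 0.26, 0.27 and 0.19. At 72 h the mix of IL4, IL10 and IL13 lowered 1 member over LPS_lo alone (3.74% of all genes called).

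At 4 h, LPS_hi sums were 1.49%, 1.55% and 1.70% (n = 7), and all 7 were below the 24 h untreated median of their plate. It lowered 38 members and raised none, but 47.6% of all genes were called and 39.1% were lower, and the member median of -0.46 was above the -0.52 of all genes. With median-ratio scaling all genes shifted up by 0.20, and 11 members were lower and 3 higher. Rpl39 was at 2.73, 13.4 and 58.4 CPM against 23.2, 63.5 and 131 CPM in untreated cultures. All 7 were below the untreated median, and the difference was -1.97 (SE 0.343, limma adjusted p = 1.65e-07). Rpl12 fell by 1.26, Rpl36a by 1.20, Rps27l by 0.95, Rps16 by 0.73 and Rpl10a by 0.64.

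When LPS_hi was given with a second agent at 4 h, the agent alone at 4 h served as a reference matched in time. Against it, LPS_hi + ATP lowered 2 members (16.3% of all genes called), LPS_hi + nicotine 1 (21%), and LPS_hi + norepinephrine lowered 3 and raised 1 (19.8%). The member medians were -0.27, -0.15 and -0.12 against -0.25, -0.17 and -0.16 over all genes. Against untreated 24 h cultures these mixtures lowered 5 (36.7% of all genes called), 12 (32.5%) and 12 members (40.1%) and raised none, or 6.33%, 15.2% and 15.2% of members against 29.3%, 23.7% and 31.9% of all genes lower. Against LPS_hi alone, adding ATP raised 1 member (4.31%), while with nicotine (3.95%) or norepinephrine (4.2%) no member was called. Of the agents alone, CCL7 raised Rpl13, Rplp2, Rps14 and Rps19 by 0.68 to 0.77 (1.7% of all genes called), and all 7 of its sums were above the untreated median of their plate. Of the 5 that shared a library pool with untreated cultures, 3 were above the median of that pool and 2 below. ATP (10.9%) lowered 1 member, nicotine (7.24%) 2, and CCL2 (0.0674%) and norepinephrine (15.6%) none.

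At 72 h the pattern was another one. Untreated sums were 1.98%, 2.30% and 3.62% (n = 25). IC had 2.74%, 3.23% and 3.63% (n = 6), P3C 2.69%, 2.80% and 3.12% (n = 6), and MPP 2.94%, 3.28% and 3.74% (n = 6). All cultures of these conditions were above the untreated median of their plate. The same held for LPS_lo with 2.25%, 2.58% and 2.83% (n = 11), and 7 of the 8 that shared a library pool with untreated cultures were above the median of that pool. LPS_hi, at 1.82%, 2.28% and 3.00% (n = 13), lay on both sides, with 7 of 13 above. Over 42 conditions at 72 h, members were called higher 102 times and lower 57 times in 3276 tests, or 3.11% and 1.74%, against 2.73% and 2.84% of the tests of all genes.

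IC at 72 h raised 9 of 78 members and lowered none (4.7% of 15464 genes called, 2.04% higher), with a median of 0.36 against -0.16. Rpl41, the smallest ribosomal protein, was at 454, 802 and 1257 CPM untreated and at 1098, 1846 and 2042 CPM with IC. All 6 IC cultures were above the untreated median, and the difference was 1.02 (SE 0.232, limma adjusted p = 0.00188). Rps27l was at 92.5, 129 and 239 CPM untreated and at 172, 234 and 499 CPM with IC, a rise of 1.01 (SE 0.250, limma adjusted p = 0.00548). Rpl24, which forms a bridge between the subunits, was at 53.5, 94.5 and 189 CPM untreated and at 94.0, 205 and 302 CPM with IC, a rise of 1.00 (SE 0.221, limma adjusted p = 0.00133). Rps16, which fell with IC at 24 h, differed by 0.26 and was not called (limma adjusted p = 0.301).

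P3C raised 5 members, or 6.41%, near the share of all genes (6.96% called, 4.76% higher), with a median of 0.32 against 0.03. Rps27l was at 214, 251 and 471 CPM and rose by 1.11 (SE 0.250, limma adjusted p = 0.000419). Rps20 rose by 0.89, and Rplp0 rose by 0.81 (SE 0.214, limma adjusted p = 0.00491), or 0.77 with copies. MPP raised 12 members and lowered 1 (5.08% called, 1.28% higher), with a median of 0.37 against -0.17. Rpl28 was at 391, 580 and 993 CPM against 125, 199 and 378 CPM without overlap, a rise of 1.56 (SE 0.249, limma adjusted p = 4.78e-07), and Rpl10 rose by 1.52. With plate as a term MPP raised 7 members, and with median-ratio scaling 35.

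LPS_lo raised 5 members at 72 h, among them Rps20 by 0.70, Rpl24 by 0.65 and Rps6 by 0.53 (8.43% called, 5.02% higher). These 5 are 6.41% of the members tested, near the share of all genes. LPS_hi raised 4 and lowered 9 (19% called, 14% lower), and the 9 are 11.5% of members, below the share of all genes. The risers were Rps27l (0.74, limma adjusted p = 0.00142), Rpl17, Rpl19 and Rpl24, and among the members that fell were Rpl23 (by 0.65) and Rpl3 (by 0.61). PGE2 lowered 6 members and raised none (5.21% called, 1.22% lower), with a median of -0.24 and sums of 1.64%, 2.02% and 2.27%. TNFa + PGE2 lowered 11 and raised 1 (7.99% called, 4.11% lower), with a median of -0.34, and Rpl10a fell by 1.00, Rpl23a by 0.74 and Rpl15 by 0.71. Rpl23a differed by -0.33 with copies and was not called. With median-ratio scaling TNFa + PGE2 lowered 3. HDL lowered 1 (0.55% called). IL4 (2.2%) raised 2, GMCSF (3.41%) 1, IFNg (9.84%) lowered 1, and TGFb (0.776%) moved none. TNFa + P3C + PGE2 raised 3 and lowered 1 (8.46%), and LPS_lo + norepinephrine raised 2 over untreated cultures (1.33%).

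Whether the response at 72 h differed from that at 24 h was tested in a fit over both times, which was added after the data had been seen. For IC, 42 members were higher at 72 h relative to 24 h and none was lower, where 4.94% of 16701 genes were called, and the median difference of the responses was 1.00. For LPS_lo 28 members were higher (3.57% called, median 0.77), for LPS_hi 37 (7%, median 0.63) and for P3C 23 (9.9%, median 0.65), with none lower in each. For MPP 7 were higher and 6 lower (8.47%), with a median of 0.00. GABA gave 5 higher and 8 lower (7.25%), TNFa 5 and 3 (21.9%) and IFNa 5 and none (0.784%). At 24 h IC, P3C, MPP and TNFa were given only to the other lots, so their difference cannot be told apart from lot and plate. LPS_hi, LPS_lo, GABA and IFNa were given in lot May16 at both times, with 4 cultures each at 24 h, on different plates. In a fit of this lot alone, also added after the data had been seen, 5 members were higher at 72 h relative to 24 h for LPS_hi (0.946% of 15748 genes called, median 0.46) and 2 for LPS_lo (1.52%, median 0.70), with none lower. The 5 were Rpl17, Rpl19, Rpl36a, Rplp0 and Rpsa, and Rpsa differed most (1.41, limma adjusted p = 4.38e-05). Rpl28 was among the 2 (1.27, limma adjusted p = 0.0456). For GABA (0.248%) and IFNa (0.0826%) no member was called, with medians of -0.38 and 0.44.

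Other genes of the translation machinery were counted by list. Of 22 tested initiation and elongation factors and other mRNAs with a TOP tract, LPS_hi at 24 h lowered 16 and raised none (median -0.63), and IC lowered 16 (median -0.65). Rapamycin added to LPS_lo raised 2 of the 22 (median 0.26), and MPP at 24 h raised 8 (median 0.45). Of 76 mitochondrial ribosomal proteins, LPS_hi lowered 14 and raised 6 (median -0.06) and IC lowered 4 and raised 1. Of 31 ribosome biogenesis genes LPS_hi lowered 8, IC lowered 5, and rapamycin added to LPS_lo lowered 1 (median -0.42). Of 21 mTORC1 and TOP regulators LPS_hi raised 3 and lowered 3, and of 18 ribosome rescue and stress genes it raised 7 and lowered 4. At 4 h LPS_hi lowered 42 of the 76 mitochondrial ribosomal proteins (median -0.79). Over all genes, LPS_hi lowered 27.7% at 24 h and 39.1% at 4 h, and IC lowered 14.3% at 24 h. MPP at 24 h raised 6.61% of all genes, and rapamycin added to LPS_lo raised 0.209%. The biogenesis counts with LPS_hi and IC were near the shares of all genes. The mitochondrial counts lowered at 24 h were below them.

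In mice, microglia taken 4 h after LPS had sums of 1.10%, 1.34%, 1.28% and 1.20%, against 1.15%, 1.03%, 1.15% and 0.981% with PBS. The lowest LPS mouse was below 2 of the PBS mice. LPS raised 7 of 78 members and lowered none (22.4% of 9012 genes called, 8.79% higher), with a median of 0.17 against -0.19 over all genes. The 7 are 8.97% of members, close to the share of all genes called higher. With median-ratio scaling all genes shifted up by 0.15 and 18 members were higher.

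Rpl4, which lines the exit tunnel, was at 163, 211, 153 and 162 CPM with PBS and at 246, 296, 238 and 230 CPM with LPS. All 4 LPS mice were above all PBS mice, and the difference was 0.55 (SE 0.139, limma adjusted p = 0.0110). Rps6 was at 139, 140, 184 and 162 CPM with PBS and at 217, 216, 216 and 231 CPM with LPS, again without overlap, a rise of 0.50 (SE 0.128, limma adjusted p = 0.0125). Rps15a rose by 0.59, Rplp1 by 0.49, Rpl29 by 0.48, Rpl19 by 0.45 and Rpl18 by 0.39. The count fell to 2 without LPS replicate 2, to 3 without LPS replicate 1, PBS replicate 3 or PBS replicate 4, and to 4 without PBS replicate 1. Neutrophil markers were higher with LPS, with summed CPM of 142 to 257 against 64.2 to 130 and 3 of 4 tested genes higher. Erythrocyte markers had summed CPM of 168, 382 and 15908 (lowest, median, highest) with LPS and of 118, 356 and 647 with PBS. Of these, 3 genes were tested and 0 were called. Proliferation markers were lower for 2 of 3 tested (27.2 to 35.6 against 44.2 to 55.2 CPM), oligodendrocyte markers for 1 of 4 and microglial markers for 2 of 11, and of 3 monocyte markers 1 was higher and 1 lower. The part of these cells was not tested. Ribosome biogenesis genes were higher for 6 of 26 tested (median 0.33), and mitochondrial ribosomal proteins for 3 of 63, with 5 lower. Over all genes 8.79% were higher with LPS.

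In 22-month mice the sums were above those of 2-month mice within each batch, and the batches differed more than the ages. Batch 1 had 0.957%, 0.847%, 0.930% and 0.892% at 2 months and 1.20%, 1.57%, 1.19% and 1.07% at 22 months. Batch 2 had 1.54% to 1.73% at 2 months (n = 7) and 1.74% to 2.50% at 22 months (n = 9). The ages did not overlap within either batch.

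**Figure D5:**
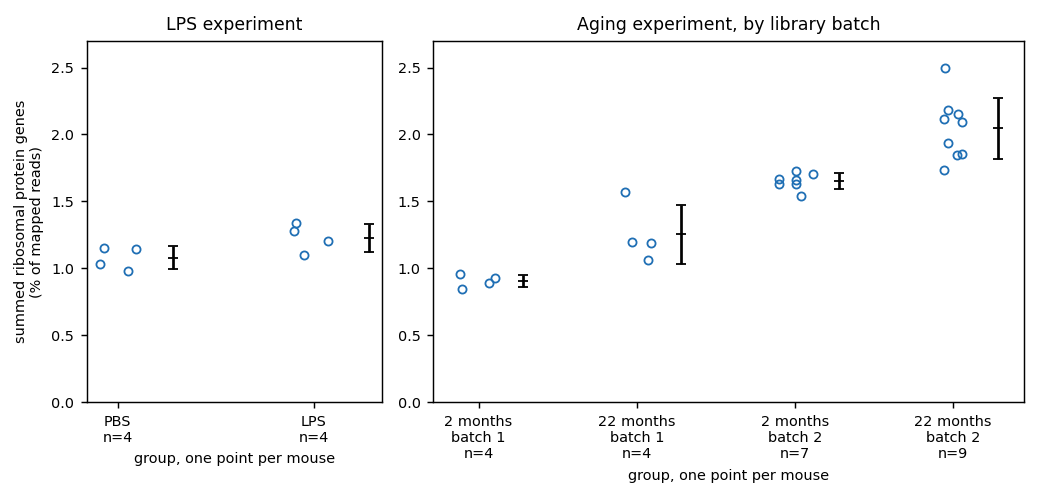
Summed level of the 79 genes as a percent of mapped reads, with 1 point for each mouse and the mean and SD beside the points, in the LPS experiment (left) and by batch in the aging experiment (right). Each 22-month mouse lies above the 2-month mice of its batch, and LPS and PBS mice overlap between 1.10% and 1.15%.

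Age raised 11 of 78 members and lowered none (3.24% of 9632 genes called, 2.5% higher), with a median of 0.36 against 0.03 and 76 of 78 members above 0. Of the 11, 7 were of the large subunit. Rplp0 was at 109, 145 and 208 CPM at 2 months and at 194, 262 and 392 CPM at 22 months, with a small overlap. The difference was 0.73 (SE 0.120, limma adjusted p = 0.00039). Within batch 1 its median rose from 134 to 238 CPM, and within batch 2 from 161 to 262 CPM. Rpl6, of the large subunit, was at 212, 275 and 301 CPM at 2 months and at 314, 361 and 491 CPM at 22 months, without overlap, a rise of 0.47 (SE 0.0855, limma adjusted p = 0.00112).

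Rps15 rose by 0.74 (SE 0.182, limma adjusted p = 0.0210), Rpl23a by 0.69, Rpl4 by 0.61 and Rpl28 by 0.61. Rps16 rose by 0.51, Rpl3 by 0.47, Rps18 by 0.44 and Rpl19 by 0.41. Rpsa differed by 0.52 (limma adjusted p = 0.0854) and Rps6 by 0.34 (0.0715), and neither was called. With batch as a term 44 members were higher, in batch 1 alone 4 and in batch 2 alone 23. The shares of all genes called in these fits are not given, so these counts show only that the calls depend on the fit. Neutrophil markers had summed CPM of 303, 1080 and 3664 at 22 months against 132, 510 and 1067 at 2 months, with 2 of 5 higher, and monocyte markers had medians of 116 and 55.0 CPM with 1 of 3 higher. T cell markers had 22.6 and 7.67 CPM with the 1 tested gene higher, and endothelial markers 124 and 116 CPM with 1 of 2 higher. Perivascular macrophage markers had 42.3 and 48.6 CPM with 1 of 4 lower, and 1 of 11 microglial markers was lower. The part of these cells in the rise was not tested. Of 21 other TOP mRNAs, 70 mitochondrial ribosomal proteins and 27 biogenesis genes none was called with age (medians 0.20, -0.02 and 0.08).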

How the data were processed

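RNA was reverse transcribed with barcoded primers, pooled, amplified with T7 polymerase and made into 3′ libraries. The authors quantified reads with Salmon 0.7.1, summed transcripts to genes, divided by mapped reads and deposited the result, which the study calls TPM and which is CPM. The submitters' processing notes name mm8, while the study names another annotation. The authors also removed samples of low depth or with few expressed genes. No culture was dropped here, except that 1 culture labelled 72 h LPS_hi at 0.00001 ug/ul stayed out of the fits.

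Values were fitted as log2(CPM + 1) with limma 3.58.1 (trend, R 4.3.3), 1 fit for 4 and 24 h, 1 for 72 h and 1 for each mouse experiment, after testing on simulated data. Differences on this scale understate changes of low genes. Genes needed more than 5 CPM in at least 4 samples (11 for aging). The labels do not say that cultures were independent, so p-values measure the spread between wells. The main fits hold no term for plate, library pool or lot, so this spread also includes differences between those. Other steps used Python 3.11.15, numpy 2.4.6, pandas 2.3.3 and matplotlib 3.10.9.

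The members, lists and named genes were chosen with earlier results of these data known. Named in each comparison were the top 3 risers and the top 3 fallers (5 and 5 in mice) among members called and unchanged in sign under plate or batch terms, plus stalk proteins, Rpsa, paralog pairs, Rpl5, Rpl11, Rps3, Rps6, Rpl13a and the highest, lowest and most variable member. Some members that this rule names are not reported here. Other members named were chosen after their values were seen. Alternatives were culture plate, batch of the aging mice, median-ratio scaling, a pseudocount of 5, no filter, a minimum log2 difference of 0.5 and leaving out replicates of small groups. Library pool, summed copies, single batches and the fits over 24 and 72 h, of all lots or of 1 lot, were added after seeing the data.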

Additional observations from a re-analysis of the deposited data

Results flagged for a closer look

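In 6 of 85 groups of 4 to 10 samples, 1 sample stood apart from the rest in its summed ribosomal protein level by Dixon's criterion. Chance gives about 1 in 20 such groups. The highest samples concerned were 24 h CCL2 at 2.49%, 72 h LPS_lo + eotaxin at 3.95%, 72 h P3C at 3.12%, 72 h TNFa + PGE2 at 2.79% and 72 h s100B at 2.90%. The lowest was 72 h P3C + PGE2 at 1.66%.

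Responses at 72 h and 24 h differed in the added fit over both times for 42 members with IC, 37 with LPS_hi, 28 with LPS_lo, 23 with P3C, 13 with MPP, 13 with GABA, 8 with TNFa and 5 with IFNa. Of the GABA members 5 were higher and 8 lower. Plate cannot be told apart from time. In lot May16 alone, which had 4 of these stimuli at both times, 5 members differed with LPS_hi, 2 with LPS_lo, and none with GABA or IFNa, by limma. The other 4 stimuli had no 24 h culture in that lot.

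The effect of rapamycin differed with and without LPS_lo for 1 member and that of resveratrol for 2. At 4 h of LPS all 7 cultures were below the untreated median of their plate, while the lowest LPS mouse stood at 1.10% and 3 of 4 LPS mice were above all PBS mice. The difference between cultures and mice was not tested.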

How the results depend on the processing

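Depth limits the low members most, since 1 CPM is about 1 read in the shallowest culture. Shares of reads and the near-identical copies limit what a single row shows. Counts of members under the settings below are given without the share of all genes called there, as are such counts above. They show how far the calls depend on the setting and are not read as results about the members. No paired analysis was possible because the labels give no replicate numbers shared between groups.

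Leaving out 1 replicate at a time gave 4 to 6 members higher and 69 to 70 lower at 4 h, 91 to 106 higher and 54 to 60 lower at 72 h, 18 to 19 higher and 1 to 2 lower for agents added to LPS, and 2 to 8 higher in LPS mice. In cultures only groups of at most 5 lost a replicate, all such groups at once, and at 4 h and 24 h only ATP at 4 h did. LPS_hi, LPS_lo, IC, P3C, MPP and LPS_lo with rapamycin or resveratrol lost none. The narrow ranges in cultures therefore say nothing about those groups. Among single members, directions of called values held with a pseudocount of 5, without the filter and with median-ratio scaling. With 1 mouse left out they held in LPS mice, the only comparison where single members were followed in this way.

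Culture plate as a term moved the higher calls at 24 h from 45 to 72, at 72 h from 102 to 168 and for agents added to LPS from 18 to 54 (lower from 1 to 6), and the lower calls at 72 h from 57 to 104. It moved calls lower with IFNa from 35 to 59, with LPS_hi + ATP at 4 h from 5 to 8 and with LPS_hi + nicotine from 12 to 24. It moved calls higher with rapamycin over LPS_lo from 5 to 25, with resveratrol from 11 to 20, with MPP from 20 to 42 at 24 h and from 12 to 7 at 72 h, with Valproic Acid from 12 to 0, with IC at 72 h from 9 to 22 and with P3C at 72 h from 5 to 13.

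Library pool as a term gave 142 lower calls at 4 h, 96 at 72 h, and 55 higher and 5 lower for agents added to LPS. It gave 63 lower with IFNa, 46 with IFNb, 16 with P3C, and 17, 32 and 25 at 4 h with LPS_hi + ATP, + nicotine and + norepinephrine (the last from 12). It gave 13 higher with IL4, 33 with rapamycin over LPS_lo, 40 with MPP at 24 h, 2 with Valproic Acid, and at 72 h 23 with IC, 2 with LPS_lo, 3 with MPP and 8 with P3C.

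Median-ratio scaling gave 14 higher and 16 lower calls at 4 h, 37 lower at 72 h and 2 lower for agents added to LPS. It gave 28 lower with IC, 12 with P3C, 11 with LPS_hi at 4 h, and 2, 0 and 0 at 4 h with LPS_hi + ATP, + nicotine and + norepinephrine. At 72 h it gave 3 lower with PGE2 and 3 with TNFa + PGE2, and 35 higher with MPP. It gave 16 higher with rapamycin and 3 with resveratrol over LPS_lo, 18 in LPS mice and 17 in aged mice. Over the comparisons described it shifted the median of all genes by -0.070 to 0.199.

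A minimum log2 difference of 0.5 left 12 lower with IFNg, and higher 3 with IL4, 3 with LPS_lo at 72 h, 2 in LPS mice and 7 in aged mice. Without the filter 8 were higher with rapamycin over LPS_lo, 4 in LPS mice, and 6 lower with LPS_hi + nicotine. Copies summed gave 9 higher with rapamycin over LPS_lo and 2 lower for agents added to LPS. In aged mice 44 were higher with a batch term, 4 in batch 1 alone and 23 in batch 2 alone.

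Some single values turned. Rplp0 with LPS_lo at 24 h became -0.48 with plate, -0.47 with pool and -0.53 with copies. Rpl10 with P3C became -0.49 and Rplp0 with Valproic Acid -0.79 with pool. Rpl5 with copies became -0.68 with P3C at 24 h, -0.64 with LPS_hi and -0.42 with LPS_hi + norepinephrine at 4 h, and -0.38 with LPS_hi and -0.44 with TNFa + PGE2 at 72 h. With pool, Rpl39 (0.20) and Rpsa (-0.35) turned for LPS_hi + norepinephrine at 4 h, and Rpl10 (-0.60) for LPS_hi at 72 h. The causes were not tested.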

Other observations

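The single culture labelled 72 h LPS_hi at 0.00001 ug/ul had a summed ribosomal protein level of 2.09%, within the range of the 25 untreated 72 h cultures (1.98% to 3.62%).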
